A study of Mus musculus with 9 samples.

Results

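The netrins and their receptors were followed in single cells sorted from the ventral midbrain of developing mice. Genes were chosen by symbol as one family of ligands and receptors: Ntn1, Ntn3 and Ntn4 among the ligands, and Dcc, Dscam, Neo1, Unc5a, Unc5b, Unc5c and Unc5d among the receptors. Of these 10 genes, 9 had an entry among the 32661 entries that were neither spike-ins nor mitochondrial genes, and Ntn3 was not analysed here. Values were read in 2035 of 3455 wells on 9 plates, namely those in which 2000 or more genes were seen, the counts did not exceed 50000 and mitochondrial counts were under 15%.

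Netrins are secreted, laminin-like proteins that steer growing axons and migrating neurons. DCC and its relative neogenin (Neo1) mostly mediate attraction, UNC5 proteins turn the response into repulsion, alone or together with DCC, and DSCAM is a further netrin-1 receptor that also acts in adhesion between neurites. In the ventral midbrain, netrin-1 is known both as a cue from the floor plate and as a guide for dopamine and GABA neurons.

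Cells came from VGAT-Cre:Ai14:Pitx3-GFP mice, all of which carried the Cre driver, the tdTomato reporter and the Pitx3-GFP allele. Because VGAT-Cre acts permanently, tdTomato marks cells in which the Slc32a1 (VGAT) promoter has been active at any time, not only those in which it was active at sorting. The tdTomato+ sort gave 7 plates, 4 labelled E16 and 3 labelled P0 ("VGAT plates"), and the tdTomato+GFP+ sort gave 1 plate at each stage ("VGAT + PITX3 plates"). The data served to ask which cells of the region carry the ligand and which carry its receptors. Brains of several litters were used at each stage and the labels do not tie wells to animals, so the p-values measure the spread between plates, which may be partly technical, and the single VGAT + PITX3 plate per stage borrows its spread from the VGAT plates. Comparisons were made on counts summed over the cells of a plate, in which fewer cells with a transcript and less transcript per cell cannot be told apart.

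The kept cells numbered 1460 on VGAT plates and 575 on VGAT + PITX3 plates, and plate totals ran from 1435919 to 5408710 counts. The smallest VGAT plate, P0 replicate 1, held 44 kept cells. A second plate name inside the well names gave the other stage for 4 of the 7 VGAT plates (E16 replicates 3 and 4, P0 replicates 1 and 3), and the GEO titles were followed. Pitx3 followed the sort named in the titles but does not check the stage, so the stage of those 4 plates was not checked. Pitx3 stood at 0 to 0.38 CPM on the VGAT plates against 147 and 78.1 CPM on the VGAT + PITX3 plates. The VGAT + PITX3 cells were rich in dopamine neuron transcripts, whose 7 listed markers summed to 4230 to 5460 CPM against 61.9 to 142 on VGAT plates. They carried Slc32a1 (225 and 285 CPM) and Gad2 (936 and 1050 CPM), yet other defining GABA neuron genes were near 0, with Gad1 at 14.5 and 10.3 CPM and Gata3 at 1.58 and 0 CPM. Gad1 stood at 796 to 1210 CPM on the VGAT plates. VGAT P0 replicate 2 stood apart in glial transcripts, with Fabp7 at 245 CPM against 2.71 to 7.4 on the other VGAT plates.

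Ntn1, which encodes netrin-1, was the member that set the sorts apart most. Levels are given as CPM, a plate's counts over exons and introns divided by its total over the genes tested and scaled by TMM. On the VGAT E16 plates Ntn1 stood at 12.3, 14.6, 11.4 and 4.76 CPM, and on the VGAT P0 plates at 5.38, 29.4 and 5.26 CPM. It reached 368 CPM on the VGAT + PITX3 E16 plate and 441 CPM on the P0 plate. Both VGAT + PITX3 plates lay far above every VGAT plate, with no overlap. The difference between the sorts, with stage as a covariate, was 5.11 on the log2 scale (SE 0.33), or 34.6-fold, with an adjusted p of 7.87e-08 in edgeR. Leaving out each plate in turn gave 4.91 to 5.49.

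**Figure D1:**
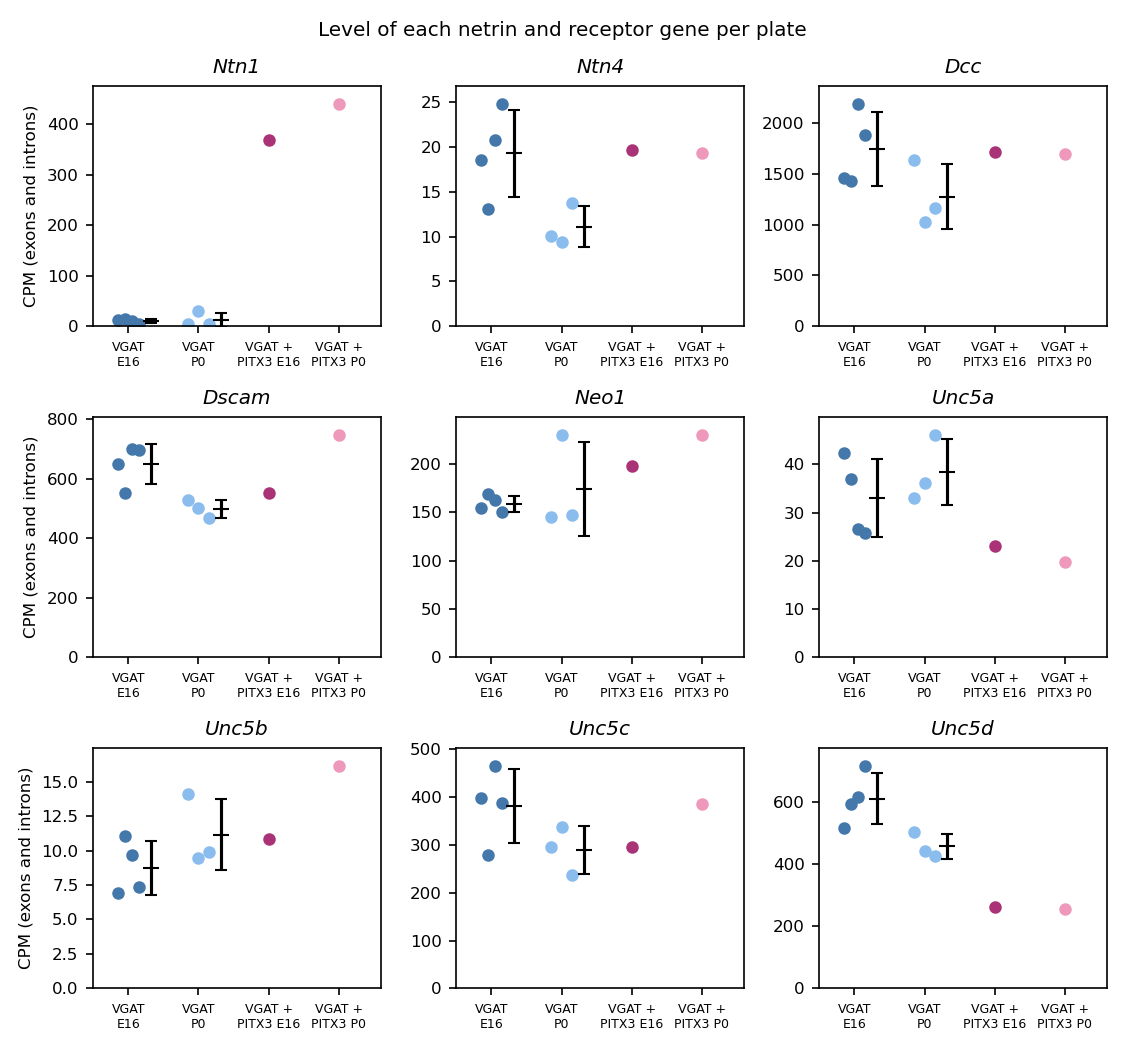
Level of each of the 9 genes in CPM over exons and introns (y axis, linear, from 0) on every plate, by sort and stage (x axis). Each point is 1 plate, and crossbars show the mean and SD of the 4 VGAT E16 and 3 VGAT P0 plates. Ntn1 is at 368 and 441 CPM on the VGAT + PITX3 plates and at most 29.4 CPM on VGAT plates, while Unc5d is lower on both VGAT + PITX3 plates than on any VGAT plate.

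Counted by cell, Ntn1 was common in one sort and rare in the other. To compare cells at an equal depth, each was thinned to 4000 counts, which left out 79 shallower cells. At least 1 Ntn1 count was then left in 217 of 299 VGAT + PITX3 cells at E16 (72.6%, exact 95% Clopper-Pearson interval 67.1 to 77.6) and in 184 of 249 at P0 (73.9%, 68.0 to 79.2). On VGAT plates the share was 3.36% ± 3.18 (SD, n = 7). It ran from 0 of 43 cells on P0 replicate 1, which allows a share of up to 8.22% at 4000 counts per cell (exact interval), to 9.79% on P0 replicate 2, the plate with the most Ntn1. Before thinning, 7 of the 44 cells of P0 replicate 1 (15.9%) had Ntn1, so that bound holds for the thinned counts alone. These intervals cover counting error only.

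Ntn1 counts were few on the VGAT plates. Before thinning, a VGAT plate held 8 to 78 Ntn1 counts in 7 to 29 cells, while the VGAT + PITX3 plates held 1625 counts in 278 of 304 cells at E16 and 980 in 238 of 271 at P0. The cell with the most Ntn1 had 2 to 16 counts on a VGAT plate and 27 and 24 on the VGAT + PITX3 plates. The 3 cells with the most held 32.1 to 60.0% of a VGAT plate's Ntn1 counts, against 4.55 and 5.51% on the VGAT + PITX3 plates. On P0 replicate 2, with its high glial transcripts, 12 of 53 Ntn1 counts were in the 11 cells that had Olig2, a gene of oligodendrocyte precursors. The 4 listed genes of that lineage summed to 47.2 CPM on this plate and to 0 to 10.5 CPM on the other VGAT plates. The 6 listed radial glia and astrocyte genes summed to 569 CPM there and to 128 to 211 CPM on the others. On E16 replicate 2, 10 of 78 Ntn1 counts were in the 18 of 228 cells with Th or Slc6a3, and on each of the other 6 VGAT plates such cells held 0 to 2 Ntn1 counts. The part of these cells in the Ntn1 level was not tested.

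Other markers also moved with the VGAT + PITX3 sort. The 3 listed glutamate neuron genes summed to 108 to 211 CPM there and to 1.9 to 23.9 CPM on VGAT plates. The oligodendrocyte lineage genes summed to 23.7 to 32.8 CPM against 0 to 10.5 CPM on the VGAT plates other than P0 replicate 2. The radial glia and astrocyte genes summed to 198 to 239 CPM, with members that went opposite ways. Fabp7 stood at 124 and 82.6 CPM and Slc1a3 at 18.3 and 28.7 CPM, above the 6 other VGAT plates (at most 7.4 and 3.55 CPM) and below VGAT P0 replicate 2 (245 and 51.7 CPM). Sox2 (6.56 and 10.3 CPM) and Aldoc (11.5 and 19.3 CPM) lay below every VGAT plate. The part of these markers in the Ntn1 level was not tested. Of the Ntn1 counts of the VGAT + PITX3 plates, 1411 of 1625 at E16 and 800 of 980 at P0 were in cells with Th or Slc6a3, and 45 and 20 were in cells with Olig2. Cells with Th or Slc6a3 were themselves 237 of the 304 kept cells at E16 and 195 of 271 at P0, and cells with Olig2 were 11 and 7.

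Ntn4, a netrin of basement membranes, was detected at low counts in both sorts. It stood at 18.5, 13.1, 20.7 and 24.8 CPM on VGAT E16 plates, at 10.1, 9.44 and 13.7 CPM on VGAT P0 plates, and at 19.7 and 19.3 CPM on the VGAT + PITX3 plates of E16 and P0. The VGAT + PITX3 plates lay within the VGAT E16 range and above all VGAT P0 plates. The sorts differed by 0.32 (log2, 95% interval -0.23 to 0.88, adjusted p = 0.609, edgeR).

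Dcc, the attractive netrin-1 receptor, was found in most cells of both sorts. It stood at 1453, 1430, 2186 and 1883 CPM on the VGAT E16 plates, at 1632, 1028 and 1162 CPM on the VGAT P0 plates, and at 1711 and 1694 CPM on the VGAT + PITX3 plates. The VGAT + PITX3 plates thus lay inside the range of the VGAT plates. The difference between the sorts was 0.20 (log2, 95% interval -0.23 to 0.62, adjusted p = 0.716, edgeR), and its sign turned without the VGAT + PITX3 P0 plate (-0.03). At 4000 counts per cell, Dcc was detected in 85.9% ± 6.65 (SD, n = 7) of VGAT cells and in 94.0 and 92.0% of VGAT + PITX3 cells. These Dcc values were almost wholly intronic, since only 12 to 104 of a plate's Dcc counts were on exons. On exonic counts alone, Dcc was detected in 6.45% ± 1.93 (SD, n = 7) of thinned VGAT cells and in 7.34 and 7.46% of VGAT + PITX3 cells.

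Dscam, the netrin-1 receptor named for Down syndrome cell adhesion molecule, was likewise widespread. It stood at 650.6, 553, 699 and 696 CPM on the VGAT E16 plates, at 528, 501 and 469 CPM on the VGAT P0 plates and at 554 and 749 CPM on the VGAT + PITX3 plates. The VGAT + PITX3 E16 plate lay within the VGAT range and the P0 plate above it. The sorts differed by 0.19 (log2, 95% interval -0.16 to 0.55, adjusted p = 0.650, edgeR). Dscam was detected in 82.3% ± 4.85 (SD, n = 7) of thinned VGAT cells and in 80.6 and 89.2% of VGAT + PITX3 cells. On exonic counts alone these shares were 35.0% ± 4.24 (SD, n = 7), 30.1 and 39.8%, so most cells were counted through introns.

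Neo1, which encodes the DCC relative neogenin, a receptor for both netrins and repulsive guidance molecules, stood at 145 to 168.7 CPM on 6 of the VGAT plates and at 229.9 CPM on VGAT P0 replicate 2. On the VGAT + PITX3 plates it stood at 198 and 230.3 CPM, above the other 6 VGAT plates. The difference of 0.36 (log2, SE 0.15) did not pass the test (adjusted p = 0.224, edgeR), though it did when VGAT P0 replicate 2, the plate with high glial transcripts, was left out (0.46, adjusted p = 0.0221, edgeR). The share of thinned cells with Neo1 was 45.9% ± 5.52 (SD, n = 7) on VGAT plates and 49.2 and 52.6% on VGAT + PITX3 plates.

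Of the UNC5 receptors, which mediate repulsion from netrin-1, Unc5d was lower in VGAT + PITX3 cells. It stood at 516, 594, 615 and 716 CPM on the VGAT E16 plates and at 502, 440.4 and 426 CPM on the VGAT P0 plates, but at 261 and 255 CPM on the VGAT + PITX3 plates. The highest VGAT + PITX3 plate lay below the lowest VGAT plate. Unc5d fell by 1.03 on the log2 scale (SE 0.16, adjusted p = 0.000367, edgeR), or 2.05-fold. The call held on exonic counts alone and without any 1 plate, with differences of -1.23 to -0.85 in the latter. By cell, Unc5d was detected in 61.2% ± 4.67 (SD, n = 7) of thinned VGAT cells against 33.1 and 34.1% of VGAT + PITX3 cells, and on exonic counts alone in 25.1% ± 4.97 (SD, n = 7) against 15 and 14.4%. Entries of 3 noncoding transcripts lie on the same strand within Unc5d, the highest of which reached 8.07 CPM on a plate.

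Unc5a was also lowest on the VGAT + PITX3 plates, at 23.1 and 19.8 CPM, against 42.4, 37.0, 26.6 and 25.8 CPM on VGAT E16 plates and 33.0, 36.1 and 46.1 CPM on VGAT P0 plates. The groups did not overlap. The difference of -0.70 (log2, SE 0.23) had an adjusted p of 0.080 in edgeR and so missed the threshold of 0.05. It passed when VGAT E16 replicate 3 or 4 was left out (adjusted p = 0.0496 and 0.0411, edgeR) and with no filter on low counts (-0.72, adjusted p = 0.00877, edgeR). Unc5c and Unc5b did not pass, with differences of 0.03 and 0.42 on the log2 scale and adjusted p-values of 0.971 and 0.461 in edgeR. Unc5c ran from 237 to 466 CPM on VGAT plates and stood at 297 and 385 CPM on VGAT + PITX3 plates, inside that range. Unc5b ran from 6.90 to 14.1 CPM on VGAT plates and stood at 10.9 and 16.2 CPM on VGAT + PITX3 plates, from 17 to 59 counts per plate.

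In all, 2 of the 9 members passed the test between the sorts, Ntn1 higher and Unc5d lower, where 8.93% of 14624 genes tested passed in either direction. The median difference of the members was 0.20 on the log2 scale, and that of all genes tested was 0.00.

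**Figure D2:**
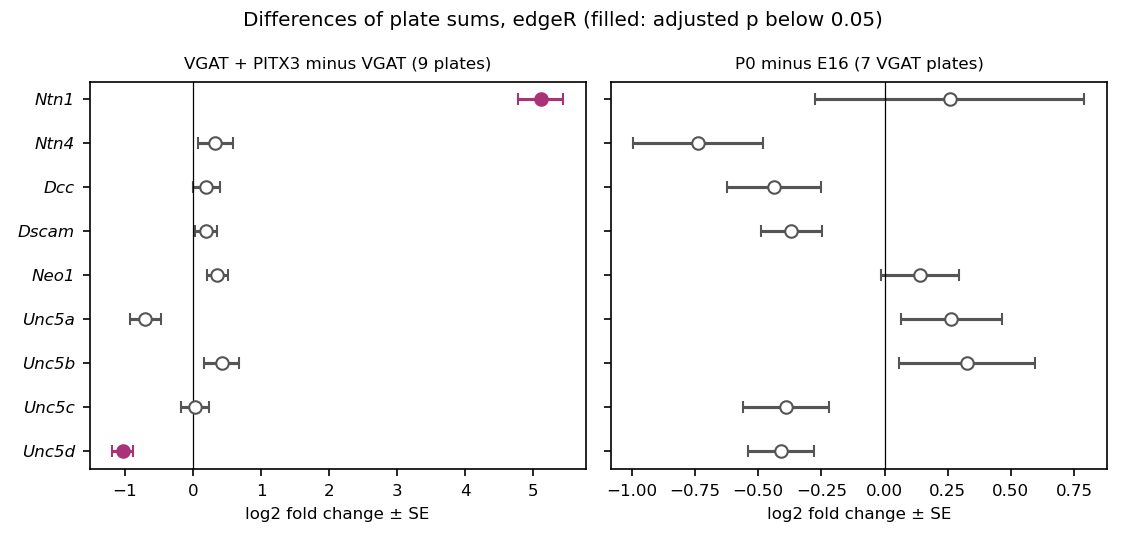
Differences of plate sums on the log2 scale with SE (x axes, of unlike range) for the 9 genes (y axis), VGAT + PITX3 minus VGAT over 9 plates on the left and P0 minus E16 over 7 VGAT plates on the right. Filled points have an edgeR adjusted p below 0.05. Only Ntn1 (5.11) and Unc5d (-1.03) are filled on the left and none on the right.

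Counted over exons and introns, Ntn1 and Dcc were found together in most VGAT + PITX3 cells. Among thinned VGAT + PITX3 cells, 68.9% at E16 and 69.1% at P0 had both Ntn1 and Dcc, against 0 to 8.25% on the VGAT plates. These joint shares rest on intronic counts of Dcc, since exonic Dcc counts were found in only 7.34 and 7.46% of VGAT + PITX3 cells. Dcc was detected in 94.9% of the E16 cells with Ntn1 (exact interval 91.1 to 97.4) and in 91.5% of those without (83.2 to 96.5), and at P0 in 93.5% (88.9 to 96.6) and 87.7% (77.2 to 94.5). Dcc was thus near its ceiling in both sets of cells and somewhat more frequent with Ntn1 on both plates, and the difference was not tested, as cells of 1 plate are not replicates. Dscam was found in 80.6% of E16 VGAT + PITX3 cells with Ntn1 and in 80.5% of those without.

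Cells commonly held several receptor genes. The median thinned cell had 3 or 4 of the 7 receptor genes on every plate, and at most 1.32% of the cells of a plate had none, with intronic counts included. Dcc together with Unc5c or Unc5d was found in 56.2 to 82.6% of the cells of a VGAT plate, and in 57.9 and 66.3% of the cells of the VGAT + PITX3 plates. The VGAT + PITX3 plates lay within the range of the VGAT plates. These joint shares also rest on intronic counts of Dcc. Exonic Dcc counts were found in only 6.45% ± 1.93 (SD, n = 7) of thinned VGAT cells and in 7.34 and 7.46% of VGAT + PITX3 cells.

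Birth was examined on the VGAT plates, the sort with several plates per stage, with stages as titled, though 4 of these 7 plates carry the other stage in their second name. None of the 9 members passed the test between P0 and E16, where 4.58% of 13639 genes did. An unadjusted p under 0.05 was reached by 5 members, all with lower values at P0, and by 3284 of all genes tested. The median difference over all 9 members was -0.37 (log2) against 0.02 for all genes tested. Dscam differed by -0.37 (SE 0.12, adjusted p = 0.0903, edgeR), and each of its P0 plates lay below each E16 plate. Unc5d differed by -0.41 (SE 0.13, adjusted p = 0.0855, edgeR), again with no overlap between the stages. These 2 passed in DESeq2 (adjusted p = 0.0356 for Dscam and 0.0363 for Unc5d), and Dscam also did in edgeR without VGAT E16 replicate 2 (-0.44, adjusted p = 0.0447). On exonic counts alone neither fell, with differences of 0.05 for Dscam and 0.19 for Unc5d.

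Ntn4 differed by -0.74 (log2, SE 0.26, adjusted p = 0.108), Dcc by -0.44 (SE 0.19, adjusted p = 0.172) and Unc5c by -0.39 (SE 0.17, adjusted p = 0.187) in the same edgeR fit. Ntn4 passed without VGAT E16 replicate 2 (-0.89, adjusted p = 0.0406, edgeR). On exonic counts, which are few for both, Ntn4 differed by -0.79 and Dcc by -0.41. Neither passed there (adjusted p = 0.350 and 0.393, edgeR). Unc5c stayed at -0.48 to -0.37 in the alternatives that kept all plates, exonic counts among them. Without a filter on low counts, these 3, Dscam and Unc5d all passed in edgeR, with adjusted p-values of 0.0209, 0.00657, 0.0177, 0.0263 and 0.0118. That setting called 1588 genes between stages, against 624 with the filter. As in the comparison of the sorts, its p-values may be smaller than the plates alone could give. Ntn1 differed by 0.26 (SE 0.53, adjusted p = 0.809, edgeR), and without VGAT P0 replicate 2, the plate with high glial transcripts, by -1.02 (adjusted p = 0.255, edgeR). Neo1 also turned without that plate, from 0.14 to -0.12.

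Whether the stage difference differed between the sorts was tested by an interaction term, with 1 VGAT + PITX3 plate per stage. No member passed in edgeR, and neither did any of the 15724 genes tested (0% called, 998 genes with an unadjusted p under 0.05, and 14 called by DESeq2). Dscam had the lowest p of the members. It stood lower at P0 than at E16 on the VGAT plates and higher on the VGAT + PITX3 plates (749 against 554 CPM), an interaction of 0.81 (log2, SE 0.25, unadjusted p = 0.00594, adjusted p = 0.773, edgeR).

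Counts on introns, which the deposited tables list as unspliced, made up very different shares of the members' counts. Dcc counts were 98.8 to 99.5% intronic on the 9 plates, those of Unc5d 81.9 to 90.6%, those of Dscam 81.8 to 88.0% and those of Unc5c 78.2 to 83.4%. Neo1 lay at 22.0 to 37.5% and Unc5a at 0 to 11.4%. Ntn1 lay at 26.4 to 41.7% apart from VGAT E16 replicate 3, where 40 of 60 counts were on introns (66.7%). Ntn4 lay at 52.8 to 77.3%. In the GRCm38 annotation, Dcc on chromosome 18 spans 1100 kb with exons over 1.2% of its length, and Dscam (chr16:96590840-97170752, minus strand) and Unc5d (chr8:28646717-29219636, minus strand) have exons over 1.52 and 1.61% of theirs. Unc5a (chr13:54949411-55006018, plus strand) spans 56.6 kb with exons over 7.36%, and Ntn1 (chr11:68209364-68400823, minus strand) spans 191 kb with exons over 3.28%. Ntn4 spans 107 kb with exons over 3.51%. Unc5c and Neo1 have exons over 5.18 and 5.39% of their length, like shares, though their intronic counts differ widely.

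The intronic share of Dscam and Unc5d was lower on every VGAT plate titled P0 than on any titled E16. Dscam stood at 87.4, 86.5, 88.0 and 88.0% on the E16 plates and at 83.7, 81.8 and 82.3% on the P0 plates, a difference of -4.85 percentage points. Unc5d stood at 90.6, 89.2, 90.5 and 89.1% at E16 and at 86.6, 82.8 and 81.9% at P0, a difference of -6.05 points. Neither gene's stages overlapped. Each gave p = 0.0571 in a two-sided exact permutation test, the smallest that 4 against 3 plates allow, and 0.143 after Benjamini-Hochberg adjustment over the 5 members with at least 50 counts on each VGAT plate. Dcc, Neo1 and Unc5c had overlapping stages, with differences of -0.09, -4.61 and -0.63 points. Over all genes the intronic share was 24.2 to 30.0% on E16 plates and 20.1 to 25.9% on P0 plates, and its part in these shares was not tested.

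**Figure D3:**
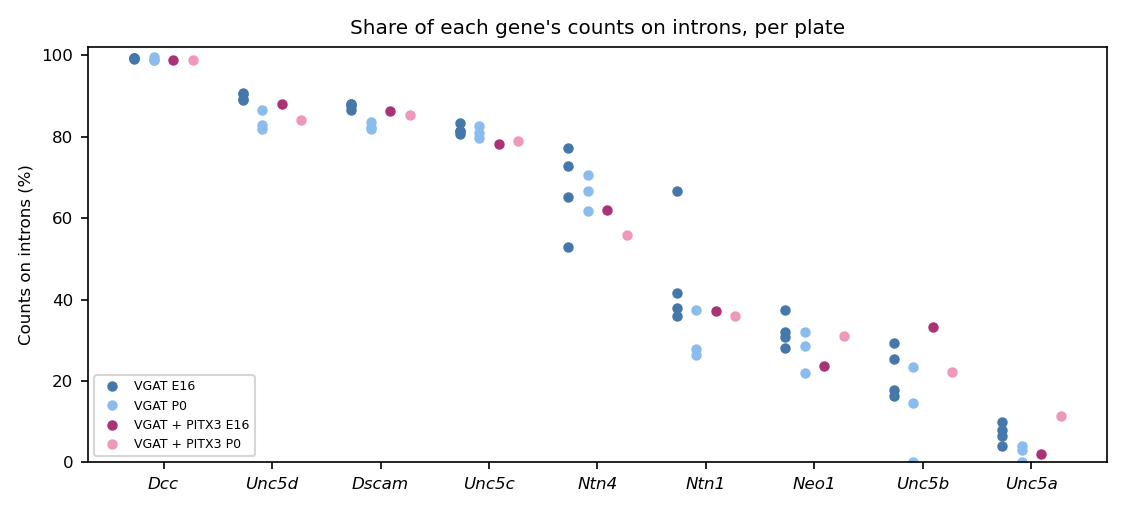
Share of each gene's counts that lay on introns, in percent (y axis, 0 to 100), for the 9 genes ordered by that share (x axis). Each point is 1 plate and colours mark sort and stage. Dcc lies at 98.8 to 99.5% on all plates, and the VGAT P0 plates of Dscam and Unc5d lie below their VGAT E16 plates.

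Within the VGAT + PITX3 plates, cells were split by Slc6a3, the dopamine transporter, which is abundant in dopamine neurons of the substantia nigra. After thinning, 142 cells at E16 and 109 at P0 had at least 1 Slc6a3 count, and 157 and 140 had none, of which 43 and 21 had some before thinning. Median depth was 15376 counts in cells with and 13390 in cells without Slc6a3 at E16, and 8201 and 7497 at P0. The test rests on 2 plates and 1 residual degree of freedom, with the spread borrowed across genes. edgeR then used 11573 degrees of freedom, which treats the spread as nearly known, so the p-values of this split are smaller than 2 plates alone could give. In edgeR, 4 of the 9 members passed, 3 higher and 1 lower with Slc6a3, where 10.2% of 11573 genes passed. The members' median difference was 0.29 (log2) against 0.01 for all genes tested.

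Dcc was higher in cells with Slc6a3. It stood at 2126 CPM with and 1177 CPM without Slc6a3 at E16, and at 2361 and 1101 CPM at P0. Both plates showed the difference, and it was the 1 of the 4 calls that DESeq2 also made. Dcc differed by 0.97 on the log2 scale (SE 0.12, adjusted p = 2.24e-15, edgeR). With 1 or 2 thinned Slc6a3 counts, Dcc lay between, at 1638 CPM at E16 and 1473 CPM at P0, and with 3 or more it reached 2264 and 2639 CPM, in CPM without TMM scaling.

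Ntn1 was also high in cells without a Slc6a3 count. It stood at 371 CPM in cells with and 341 CPM in cells without Slc6a3 at E16, and at 540.3 and 323 CPM at P0. The P0 plate showed most of the difference. At E16, cells with 0, 1 or 2, and 3 or more Slc6a3 counts held 339, 413 and 346 CPM of Ntn1 without TMM scaling, with no rise in the highest bin, and at P0 they held 317, 510.4 and 538 CPM. The level without Slc6a3 was still far above that of any VGAT plate, though these sums were scaled separately. The difference was 0.41 (log2, SE 0.12, adjusted p = 0.00775, edgeR), and DESeq2 did not call it (adjusted p = 0.789).

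Unc5b and Unc5d went opposite ways. Unc5b stood at 17.3 against 3.59 CPM at E16 and at 25.7 against 7.48 CPM at P0 in cells with and without Slc6a3, and differed by 2.02 (log2, SE 0.44, adjusted p = 9.80e-05, edgeR). The cells without Slc6a3 held 8 and 9 Unc5b counts per plate, so its fold is imprecise. Unc5d stood at 165 against 344 CPM at E16 and at 232.5 against 262 CPM at P0, and fell by 0.66 on the log2 scale (SE 0.13, adjusted p = 5.52e-06, edgeR), a call lost on exonic counts, where the difference was of like size (-0.65, adjusted p = 0.0762, edgeR). Over Slc6a3 counts at P0, Unc5d had no steady order and was at 257, 107 and 276 CPM without TMM scaling in cells with 0, 1 or 2, and 3 or more Slc6a3 counts. At E16 the same bins held 342, 190.3 and 151 CPM. Neither was called by DESeq2, with adjusted p-values of 0.199 for Unc5b and 0.349 for Unc5d. Dscam and Neo1 were higher with Slc6a3 on both plates without passing, with adjusted p-values of 0.0983 and 0.121 in edgeR, and Unc5c differed by -0.28 (adjusted p = 0.147, edgeR).

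**Figure D4:**
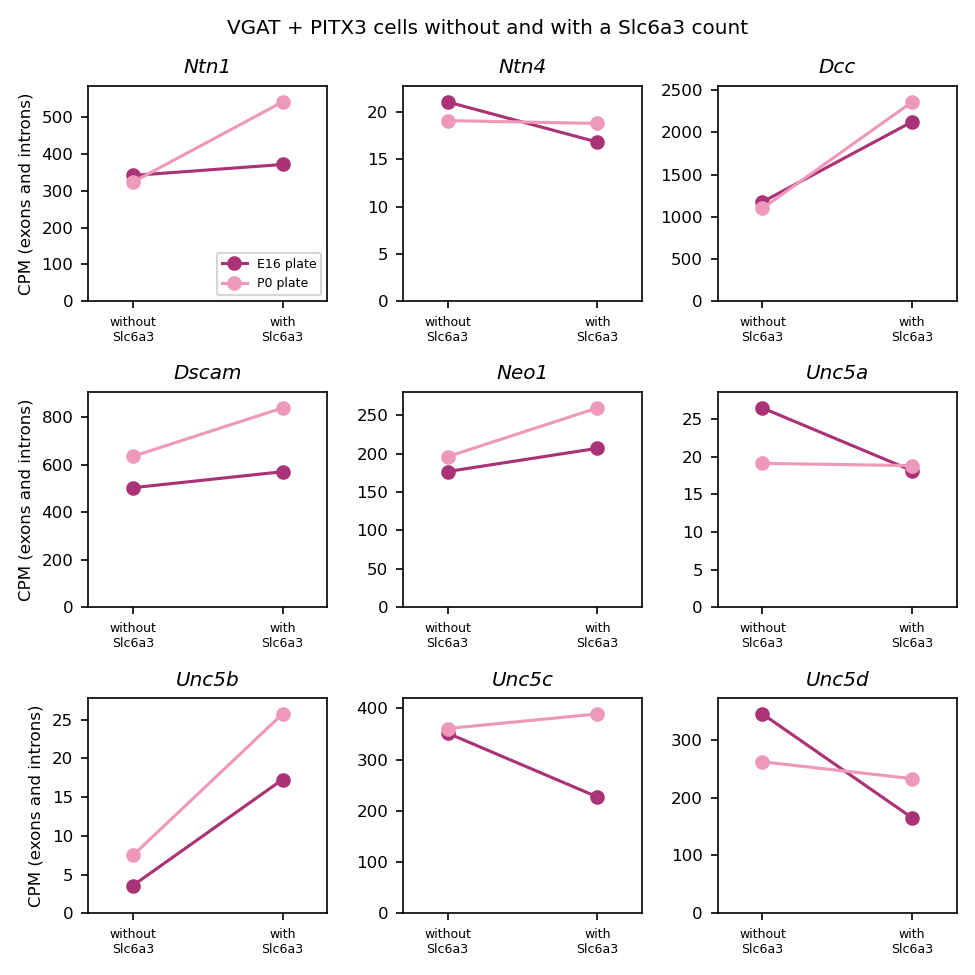
Level of each gene in CPM over exons and introns (y axes, linear, from 0) in VGAT + PITX3 cells without and with a Slc6a3 count after thinning (x axis). Each line joins the pair of sums of 1 plate. Dcc rises from 1177 to 2126 CPM at E16 and from 1101 to 2361 CPM at P0, while Unc5d is lower with Slc6a3 on both plates.

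VGAT cells were further split by transcription factors that the study uses as regional marks: Six3 and Pax5 for the reticulate part of the substantia nigra, Pax7 for the interpeduncular nucleus, Otx2 for the ventral tegmental area and Nkx2-2 for the midbrain reticular formation. The splits asked whether receptors differ between the cells of these regions. Sums of cells with and without the factor were compared within plates. A cell without a count may still express the factor, and the comparison groups overlap between splits since each takes in all cells that lack its factor.

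Unc5a was higher in cells with Six3 (527 cells on 7 plates) and lower in cells with Pax5 (236 cells on 6 plates). With Six3 it stood at 39.9 to 54.4 CPM (median 45.4) against 18.1 to 43.7 CPM (median 30.0) without, higher on 7 of 7 plates, a difference of 0.71 on the log2 scale (SE 0.12, adjusted p = 0.00201, edgeR). With Pax5 it stood at 3.01 to 29.3 CPM against 29.6 to 48.5 CPM without, lower on 6 of 6 plates, a difference of -1.49 (SE 0.29, adjusted p = 0.00305, edgeR). The values with and without Pax5 did not overlap, though the cells with Pax5 held as few as 1 and at most 18 Unc5a counts per plate. The Pax5 call held without any 1 plate, and the Six3 call did too but was lost when Six3 was counted before thinning (0.51, adjusted p = 0.157, edgeR). Unc5a was also higher with Otx2 on 6 of 7 plates, without passing (0.47, adjusted p = 0.0732, edgeR). So it was with Nkx2-2 on 6 of 7 plates (0.38, adjusted p = 0.393, edgeR). With Pax7 it was higher on 2 of 4 plates and differed by -0.15. Unc5a overlaps Hk3 on the opposite strand, which reached 2.22 CPM on a plate, and the strand setting of the counting was not given in the sources used here.

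Unc5b was higher with Six3 on 7 of 7 plates, at 9.46 to 20.7 CPM against 4.28 to 13.2 CPM, a difference of 1.04 (log2, SE 0.21, adjusted p = 0.0120, edgeR). The adjusted p rose to 0.0805 and 0.0580 without VGAT E16 replicate 2 or 3, and to 0.430 with Six3 counted before thinning, where the difference was 0.65 (edgeR). Unc5a and Unc5b were the 2 of 9 members that passed for Six3, where 2.69% of 12803 genes did. With Pax5, Unc5b was lower on 6 of 6 plates without passing (-1.31, adjusted p = 0.115, edgeR), and 3 of those plates had no Unc5b count in cells with Pax5. With Otx2 it was higher on 5 of 7 plates, also without passing (0.97, adjusted p = 0.158, edgeR). With Nkx2-2 it was lower on 6 of 7 plates (-0.77, adjusted p = 0.489, edgeR), and with Pax7 it differed by -0.42.

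Unc5c was higher with Pax5 on 5 of 6 plates, at 240 to 592 CPM (median 441) against 238 to 426 CPM (median 328), a difference of 0.44 (log2, SE 0.12, adjusted p = 0.0388, edgeR). It was not called in DESeq2 (adjusted p = 0.0905), nor in edgeR without VGAT E16 replicate 2, 3 or 4 or P0 replicate 2 (adjusted p = 0.171, 0.131, 0.0718 and 0.146) or with Pax5 counted before thinning (adjusted p = 0.337). With Unc5a, 2 of 9 members passed for Pax5, where 5.2% of 12090 genes did.

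With Otx2 (248 cells on 7 plates), Unc5c was the 1 of 9 members that passed, where 6.16% of 11641 genes did. It stood at 159 to 365 CPM (median 258) with Otx2 and at 246 to 497 CPM (median 365) without, lower on 6 of 7 plates. The exception was VGAT E16 replicate 2, at 299 against 277.5 CPM. Unc5c fell by 0.53 on the log2 scale (SE 0.11, adjusted p = 0.00466, edgeR), a call lost on exonic counts (-0.45, adjusted p = 0.0907, edgeR).

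With Pax7 (51 cells on 4 plates), Dcc was the 1 of 9 members that passed, where 1.41% of 11170 genes did. It stood at 1889, 1803, 1851 and 3125 CPM with Pax7 on VGAT E16 replicates 1 and 2 and P0 replicates 2 and 3, against 1505, 1467, 1035 and 973 CPM without. Dcc was higher with Pax7 on 4 of 4 plates and the groups did not overlap. The difference was 0.79 (log2, SE 0.17, adjusted p = 0.0160, edgeR). Without P0 replicate 3 it was 0.50 with an adjusted p of 0.192, and DESeq2 did not call it (adjusted p = 0.115). The call was also lost in edgeR on exonic counts (1.17, adjusted p = 0.396) and with Pax7 counted before thinning (0.59, adjusted p = 0.344).

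With Nkx2-2 (312 cells on 7 plates), 2 of 9 members passed, both lower, where 3.1% of 12139 genes passed. Ntn1 was lower on 7 of 7 plates, at 2.75 to 19.5 CPM against 5.56 to 33.2 CPM, a difference of -1.27 (log2, SE 0.26, adjusted p = 0.00967, edgeR). Cells with Nkx2-2 held 1 to 6 Ntn1 counts per plate, and the adjusted p rose to 0.0615 and 0.0518 without VGAT E16 replicate 2 or 3 and to 0.0568 on exonic counts (edgeR). A few cells held much of the Ntn1 of each VGAT plate, and their part in this split was not tested. Dcc was lower on 7 of 7 plates as well, at 865 to 1905 CPM (median 1422) against 1096 to 2301 CPM (median 1504), but by a small difference of -0.21 (SE 0.05, adjusted p = 0.0324, edgeR). The Dcc call was lost in DESeq2 (adjusted p = 0.0555) and in edgeR with Nkx2-2 counted before thinning (adjusted p = 0.102) and without VGAT E16 replicate 2, 3 or 4 or P0 replicate 2, with adjusted p-values of 0.0809 to 0.154. On exonic counts, which are few for Dcc, the call held with a larger difference (-1.02, adjusted p = 0.00750, edgeR).

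**Figure D5:**
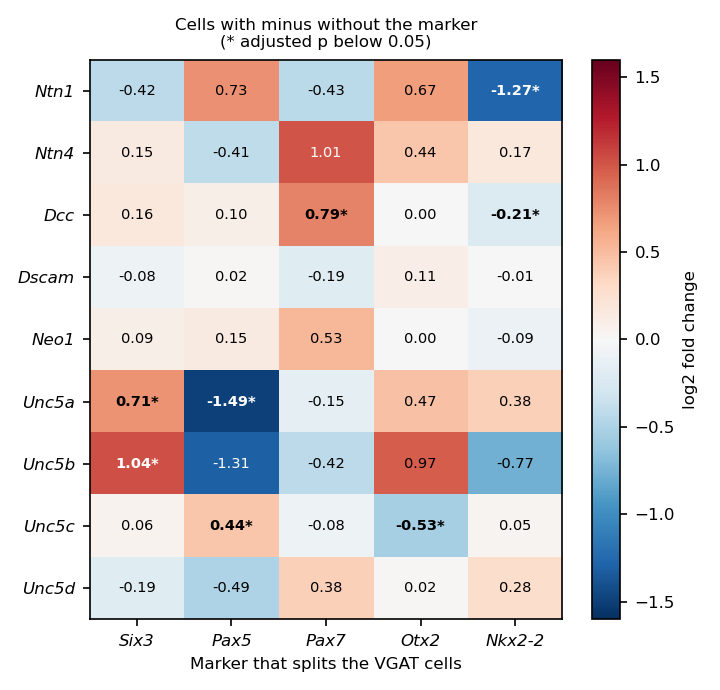
Differences on the log2 scale between VGAT cells with and without each of 5 transcription factors (x axis) for the 9 genes (y axis), in colour and as numbers, with stars and bold type where the edgeR adjusted p is below 0.05. The stars stand at Unc5a and Unc5b for Six3, Unc5a and Unc5c for Pax5, Dcc for Pax7, Unc5c for Otx2, and Ntn1 and Dcc for Nkx2-2, and none at Dscam, Neo1, Ntn4 or Unc5d.

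Dscam, Neo1, Ntn4 and Unc5d passed in none of the 5 splits. The differences of Dscam ran from -0.19 to 0.11 on the log2 scale. Those of Ntn4 ran from -0.41 to 1.01. Unc5d was lower with Pax5 on 6 of 6 plates (-0.49, adjusted p = 0.104, edgeR) and with Six3 on 6 of 7 (-0.19, adjusted p = 0.148, edgeR). It was higher with Nkx2-2 on 5 of 7 plates (0.28, adjusted p = 0.171, edgeR) and with Pax7 on 3 of 4 (0.38, adjusted p = 0.479, edgeR). With Otx2 it differed by 0.02. The differences of Neo1 ran from -0.09 to 0.53.

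Other genes of netrin signalling were read from a list of 47: further ligands and binding partners, proteins that cut or clear the receptors, and signalling proteins downstream of them. Between the sorts, 6 of the 45 tested were higher in VGAT + PITX3 cells and 1 was lower, where 8.93% of all genes tested passed, with a median difference of 0.05 (log2) beside 0.00 for all genes. Cbln1, a secreted synapse organizer, stood at 7.14 to 20.0 CPM on VGAT plates and at 360 and 356 CPM on VGAT + PITX3 plates, a difference of 4.86 (adjusted p = 1.11e-09, edgeR). Ntng1 and Ntng2 encode netrin-G proteins, which are anchored in the membrane and do not bind DCC. They differed by 2.47 (adjusted p = 2.40e-08) and 3.75 (adjusted p = 0.00217) in edgeR. Ntng2 was at or near 0 on VGAT plates (0 to 1.11 CPM) and low on VGAT + PITX3 plates (4.07 and 8.53 CPM). It was thus measured in 1 sort only, and the size of its difference is imprecise. Flrt3, a transmembrane partner of UNC5 receptors, was higher by 1.10 (adjusted p = 0.00152, edgeR), and Cbln4 fell by 1.03 on the log2 scale (adjusted p = 0.000459, edgeR). None of the 7 receptor turnover genes passed.

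Between the stages, 2 of 43 tested were lower at P0, where 4.58% of all genes tested passed in either direction. Dscaml1, the paralogue of Dscam, fell by 0.61 (log2, adjusted p = 0.0176) and Adam10, a protease that sheds cell surface receptors, fell by 0.50 (adjusted p = 0.0378) in edgeR. Between cells with and without Slc6a3, 5 were higher and 5 lower of 43 tested, where 10.2% of all genes tested passed. Those with the lowest adjusted p were Cbln1, Cbln2, Ntng1 and Dscaml1, which fell by 2.17, 2.85, 1.01 and 1.27 on the log2 scale (adjusted p = 3.61e-58, 4.67e-21, 3.22e-16 and 5.27e-14, edgeR), and Flrt3, which was higher by 0.91 (adjusted p = 8.29e-08, edgeR). Cbln1 and Ntng1 were therefore higher in the VGAT + PITX3 sort and, within it, lower in cells with Slc6a3. The VGAT splits gave 4 (Six3), 5 (Pax5), 1 (Pax7), 6 (Otx2) and 5 (Nkx2-2) passing genes of 43, where 2.69, 5.2, 1.41, 6.16 and 3.1% of all genes passed. Among them was Flrt2, a further UNC5 partner, higher with Six3 (0.32, adjusted p = 0.0489, edgeR) and Pax5 (0.64, adjusted p = 0.000312, edgeR) and lower with Nkx2-2 (-1.06, adjusted p = 0.000648, edgeR).

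Genes whose levels followed those of Ntn1, Dcc or Dscam most closely over the 9 plates were picked among 10195 genes with a mean of at least 10 CPM. By Pearson's r of log2 CPM they were Tox2 (0.984), Ntsr1 (0.974) and Ston2 (0.973) for Ntn1, Kcnb2 (0.965), Poc1b (0.957) and Ctif (0.955) for Dcc, and Sobp (0.976), Ralgapa2 (0.970) and Xkr4 (0.968) for Dscam. The points share libraries, and for Ntn1 the 2 VGAT + PITX3 plates stand apart from the other 7, so these values are a description only.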

How the data were processed

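Cells were sorted into 384-well plates and sequenced by SORT-seq, a plate form of CEL-Seq2 that counts transcripts from their 3′ ends with molecular identifiers. Per the labels and the study's methods, the authors aligned reads with STAR to mouse GRCm38 (mm10, Ensembl annotation) and deposited 3 tables of expected counts per gene and well: exonic (spliced), intronic (unspliced) and both (total). These values are corrected for molecular identifiers, so many of the values above 0 are not whole. The strand setting and the length of the identifier are not settled by the sources used here.

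Wells were kept with at least 2000 genes and at most 50000 counts, both without spike-ins, and with mitochondrial counts under 15% of all counts, spike-ins included, which left 2035. The study's limits on ribosomal, spike-in and exonic shares were not applied, and the highest spike-in share kept was 29.4%. No doublet caller was run. No pair of kept wells held identical counts. Wells left out fell mostly under the gene minimum. Counts were summed per plate, rounded and tested in edgeR 4.0.16 under R 4.3.3 by its quasi-likelihood F test, after filterByExpr and TMM scaling, with Benjamini-Hochberg adjustment over all genes tested and a threshold of 0.05. The SE is the size of the log2 difference divided by the square root of F, and intervals use the degrees of freedom of the test. For splits by a marker, cells had the marker when at least 1 count was left after thinning to 4000 counts (seed 1), plates with at least 5 such cells were used, full counts were summed, the plate was a block and the marker was left out of the table. Code was tested on simulated data. Python 3.11.15, pandas 2.3.3 and scipy 1.17.1 were used for shares, intervals and the exact permutation test. Named genes were the members in every comparison, the pathway genes that passed (the 5 with the lowest adjusted p where more did, apart from Flrt2, which was singled out in the splits after its values were seen) and the 3 genes most like Ntn1, Dcc and Dscam. Alternatives were DESeq2 1.42.0, RLE size factors, no filter, exonic counts, leaving out large cells or each plate, a replicate block, no plate block, and other thinning. Members and lists were chosen with earlier results of these data known. 1 pathway gene is not reported here.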

Additional observations from a re-analysis of the deposited data

Results flagged for a closer look

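The share of thinned cells with Unc5c was 43.0% on VGAT E16 replicate 2, set apart from 50.5, 50.7 and 51.9% on the other VGAT E16 plates by more than Dixon's criterion for 4 values allows (ratio 0.843). Chance flags about 1 in 20 groups, and 23 groups were examined. VGAT E16 replicate 2 also had the lowest Unc5c level of the E16 plates and was the plate that went against the others for Unc5c with Otx2.

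In 3 of 54 splits every E16 plate went one way and every P0 plate the other. Values are means over a stage's plates of log2 differences of CPM plus 1, and means alone can differ in sign in further splits. These differences between stages were not tested. Chance flags such splits often where a stage has 1 plate, as for Slc6a3, or few, as for Pax7. Unc5c with against without Slc6a3 differed by -0.63 on the VGAT + PITX3 E16 plate and by 0.11 on the P0 plate. Unc5b with against without Pax7 differed by -2.09 on the E16 plates and by 0.24 on the P0 plates, from few counts. Unc5c with against without Pax7 differed by 0.34 at E16 and by -0.65 at P0.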

How the results depend on the processing

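The call of Ntn1 and of Unc5d between the sorts held in every setting tried, including without each plate. The count of genes called between the sorts ran from 625 (without the VGAT + PITX3 E16 plate) to 1397 when 1 plate was left out, against 1306, and was 866 without the VGAT + PITX3 P0 plate. Between stages it was 624, but 944 in DESeq2, 1588 with no filter and 226 with a replicate block, and 76 to 833 without 1 plate: 76, 92, 130, 162 and 265 without P0 replicate 3, E16 replicate 3, E16 replicate 4, P0 replicate 2 and E16 replicate 1. For the interaction, 14 genes were called by DESeq2 and 65 with no filter, 0 to 0 without 1 plate, and it could not be fitted without a VGAT + PITX3 plate. For the Slc6a3 split, DESeq2 gave 342 in place of 1178 and no plate block 231, and leaving out a plate leaves no residual degree of freedom. The splits by Six3, Pax5, Pax7, Otx2 and Nkx2-2 gave 344, 629, 157, 717 and 376, against 694, 946, 342, 1135 and 702 with no filter and 57, 240, 60, 306 and 92 without the plate block. With the marker counted before thinning, Six3 gave 99, Pax5 376 and Pax7 103, and DESeq2 gave 87 for Pax7. Without 1 plate they ran from 219 to 377, 362 to 635, 68 to 241, 472 to 828 and 232 to 417. The cause of these shifts was not tested.

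Without the plate block the split calls of Ntn1, Unc5b and Unc5d (Slc6a3), Unc5a and Unc5b (Six3), Unc5c (Pax5, Otx2) and Dcc (Pax7, Nkx2-2) were lost. No value passed where its sign changed: Dscam (0.046) and Unc5d (0.19) between stages on exonic counts, and, without 1 plate, between sorts Dcc (-0.030 to 0.40), Dscam (-0.24 to 0.57) and Unc5c (-0.37 to 0.40), between stages Ntn1 (-1.02 to 0.75) and Neo1 (-0.12 to 0.25), and intronic shares of Dcc (-0.30 to 0.031 points) and Unc5c (-1.46 to 0.11 points).

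Same-numbered plates of the 2 stages deviated together by r = 0.04, 0.06 and 0.04 across genes, so the labels' numbers were not taken as pairs. With a replicate block, 914 genes were called between sorts, and Unc5c between sorts (-0.024) and Ntn1 between stages (-0.24) changed sign.

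Shares of cells moved with depth. Without thinning Ntn1 was in 10.6% of VGAT cells and in 91.4 and 87.8% of VGAT + PITX3 cells at E16 and P0 (85.1 and 87.7% at 8000 counts). Dcc was in 95.0% of VGAT cells and 99.0% of VGAT + PITX3 E16 cells without thinning (98.0 and 98.4% of VGAT + PITX3 cells at E16 and P0 at 8000 counts), and Dscam in 95.9, 96.4 and 95.6% (95.0, 94.0 and 96.7% at 8000). On exonic counts at 4000 per cell, Ntn1 was in 61.2% of VGAT + PITX3 E16 cells, Dcc in 6.45, 7.34 and 7.46% and Dscam in 35.0, 30.1 and 39.8% of VGAT, VGAT + PITX3 E16 and VGAT + PITX3 P0 cells. Low counts of Ntn4, Unc5b and, on VGAT plates, Ntn1 limit what their differences can show.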
